A study of Homo sapiens with 9 samples.

Results

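YAP1 and WWTR1 (the gene of TAZ), their DNA-binding partner TEAD1, and 7 genes that YAP/TAZ are known to activate were followed in glioblastoma cells. The cells were unedited or had ARNT2 targeted with CRISPR. The 7 are CYR61, CTGF, ANKRD1, AMOTL1, AMOTL2, AJUBA and LATS2. These 10 genes were taken by their symbols, some of them older ones (CYR61 is now CCN1 and CTGF is CCN2), from a table of 19356 genes. All 10 had a row, and all 10 passed the filter on low values that 16457 genes passed. The cells were LN229, an established human glioblastoma line kept in DMEM with 5% FBS. Sequencing of polyadenylated RNA gave 3 libraries for the unedited cells (WT) and 3 for each of B3 and C4, lines whose ARNT2 was targeted with CRISPR. ARNT2 encodes a transcription factor of the bHLH-PAS family, and the study asked for its role in proliferation and differentiation of these cells. Whether B3 and C4 were each grown from 1 cell is not given in the sources used here.

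YAP and TAZ are co-activators without a DNA-binding domain. In the nucleus they bind TEAD proteins, which recognise the motif GGAATG, and switch on genes of growth, adhesion and matrix. The Hippo kinases LATS1 and LATS2 phosphorylate YAP and TAZ, so that they are held in the cytoplasm or degraded. Several targets feed back on the pathway: LATS2 and the angiomotins AMOTL1 and AMOTL2 restrain YAP/TAZ, while AJUBA binds and restrains LATS kinases. Much of this control acts on the proteins, which were not measured. In glioblastoma YAP and TAZ are known for their link to the mesenchymal state and to invasion.

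The window upstream of CTGF is shown because CTGF in C4 had the largest rise seen among the 10 genes in either line. RefSeq (GRCh38.p14) gives promoter windows for 8 of the 10 genes, 11 windows in all. The 250 bases before the CTGF start, chr6:131951373-131951622 on the minus strand, read 5′ to 3′ as follows, with each GGAATG in capitals.
CTGF: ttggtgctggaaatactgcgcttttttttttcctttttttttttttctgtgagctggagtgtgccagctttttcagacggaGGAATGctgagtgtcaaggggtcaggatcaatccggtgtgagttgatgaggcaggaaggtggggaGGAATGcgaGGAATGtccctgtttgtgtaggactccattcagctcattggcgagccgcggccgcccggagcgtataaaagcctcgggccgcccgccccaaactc
GGAATG, read on both strands as GGAATG or CATTCC, stands 3 times in this window, at 169, 104 and 95 bases before the start. Only 29 of 35116 windows of this length (0.0826%) held 3 or more copies, and 11.9% held at least 1. The sites of the other members, given with 10 flanking bases on either side to compare their surroundings, lie 162 (YAP1), 220 and 128 (ANKRD1), 69 (AMOTL2, at its second start) and 59 (AJUBA, at its second start) bases before a start.
YAP1: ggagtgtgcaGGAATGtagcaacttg
ANKRD1: caccaccaaaGGAATGgccctctcac
ANKRD1: cactgagtctGGAATGaaaattcacc
AMOTL2: gaaactctcaCATTCCtggcatagca
AJUBA: gaagttggctGGAATGaagccaaagc
The AMOTL2 site is the reverse complement of the motif. In GENCODE 29 the second ANKRD1 site and the AMOTL2 and AJUBA sites overlap an annotated UTR of their own gene. No motif match was found in the windows used for WWTR1, AMOTL1 and LATS2, and TEAD1 and CYR61 were named only. The WWTR1 windows (149703274 to 149703523 and 149658026 to 149658275) and the AMOTL1 window (94768106 to 94768355) lie inside these genes as placed by GENCODE 29. The GENCODE starts of WWTR1 (149736714) and AMOTL1 (94706431) were not scanned. None of the members' windows held the AP-1 motif TGACTCA, present in 4.20% of all windows, or the CArG box bound by SRF, present in 1.16%. A match is a description of the letters and not a measured binding site.

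The knockout label was first set beside the RNA level of ARNT2. The edited sequence and the ARNT2 protein are not part of these data. ARNT2 stood at scaled log2 values of 13.56, 13.59 and 13.58 in the WT libraries, 11.91, 11.90 and 11.86 in B3 and 12.22, 12.15 and 12.05 in C4. It was thus at 31.1% of the WT level in B3 and 37.1% in C4, lower in 6 of 6 knockout libraries (adjusted p = 1.74e-21 and 1.89e-20; exact two-sided permutation p = 0.1 for each line, the smallest that 3 against 3 libraries allow). Of 9 glial and glioblastoma markers all were in the table: VIM, CD44, S100B and NES lay above 15, SOX2 above 12, GFAP between 6.61 and 6.98 and SOX9 at most at 4.23. OLIG2 lay between 11.54 and 11.89 and EGFR between 11.68 and 12.30. PTPRC and CD3E, defining genes of immune cells, were at most at 2.40, while CD68, less specific, lay between 10.68 and 10.99. Of endothelial genes PECAM1 was at most at 5.46, TEK at most at 2.49 and VWF between 8.48 and 8.95. Of epithelial genes EPCAM was at most at 5.97 and CDH1 at most at 5.93. KRT5 lay between 7.35 and 8.28 and KRT14 between 8.47 and 9.03, both above GFAP. The summed level of 4 fibroblast and mural markers was 13.48 to 13.55 in WT, 13.23 to 13.31 in B3 and 13.03 to 13.18 in C4. In B3 1 was higher (DCN, 0.28) and 2 were lower (RGS5, -1.22, and PDGFRB, -0.12). In C4 0 were higher and 3 lower (LUM, -0.89, DCN, -0.50, and PDGFRB, -0.23). By the labels all libraries are of the LN229 line. The part of this level in the results on CTGF and CYR61, which fibroblast and mural cells also express, was not tested. In bulk RNA, fewer cells of a type and less RNA per cell cannot be told apart. Separate cultures are not named in the labels, so the p-values rest on a spread between libraries that may be technical.

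All values below are the deposited log2 values, on which a difference of 1 is a doubling. Changes are given ± the standard error of limma's moderated test fitted on all 16457 genes, with 3 libraries per group. A gene is called changed when its Benjamini-Hochberg adjusted p is under 0.05. In B3, 6 of the 10 genes were called, 5 higher and 1 lower, where 47.9% of all tested genes were called (23.2% higher and 24.6% lower). In C4, 7 were called, 5 higher and 2 lower, where 56.2% of all tested genes were called (28.2% higher and 28.0% lower). Both shares lie near the background, so the number of calls sets these genes apart in neither line. Their median change was 0.085 in B3 and 0.095 in C4, beside 0.0001 and 0.0012 over all tested genes. The median absolute change was 0.155 in B3 and 0.145 in C4, beside 0.0728 and 0.092 over all tested genes. B3 and C4 are compared with the same 3 WT libraries, so their changes are not independent of each other.

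**Figure D1:**
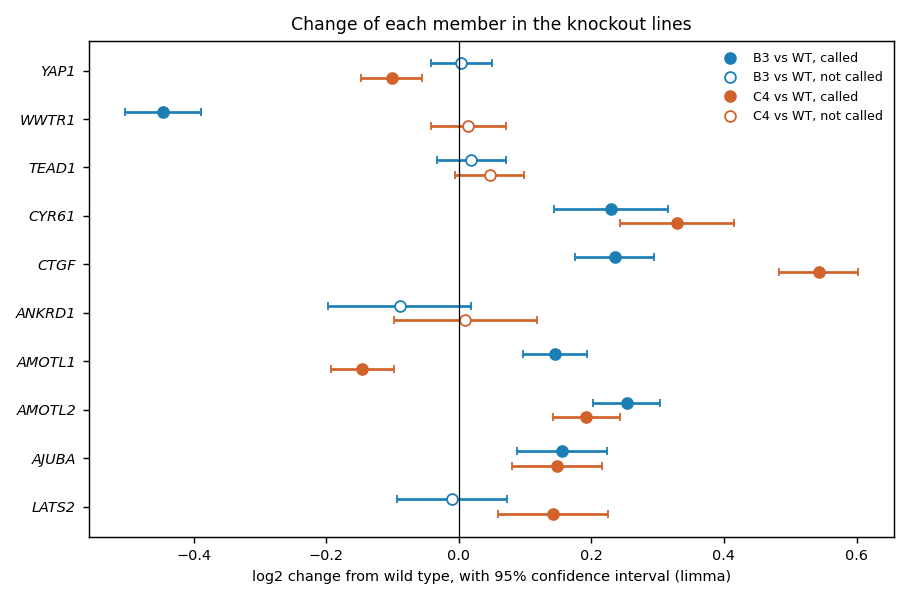
The log2 change from WT with its 95% confidence interval (limma, 3 libraries per group) is drawn for each of the 10 genes, B3 in blue and C4 in orange, filled where the gene was called. CTGF in C4 (0.54) and WWTR1 in B3 (-0.45) stand farthest from 0, and AMOTL1 lies on opposite sides of 0 in the 2 lines.

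Of the co-activators, WWTR1 fell in B3 and not detectably in C4, and YAP1 was slightly lower in C4. WWTR1 (ENSG00000018408.14; GRCh38 chromosome 3, 149517235 to 149736714, minus strand) was the most abundant of the 10 genes. It read 16.77, 16.80 and 16.79 in WT, 16.35, 16.37 and 16.30 in B3 and 16.83, 16.81 and 16.77 in C4. The 3 B3 libraries lay below the other 6, and WT and C4 overlapped. The change in B3 was -0.45 ± 0.027, which leaves 73.4% of the WT level (adjusted p = 4.94e-12), and 2.28% of all tested genes changed more in absolute terms. In C4 the change was 0.01 ± 0.027 (95% interval -0.04 to 0.07, adjusted p = 0.69). The difference between the lines, C4 minus B3, was 0.46 ± 0.027 (adjusted p = 1.01e-12). WWTR1-AS1, an antisense gene, shares 795 exon bases with WWTR1, 9.45% of the exon bases of WWTR1, and whether reads were counted by strand is not stated. WWTR1-AS1 itself was far weaker, with group means of 6.35 in WT, 6.45 in B3 and 6.36 in C4, and its change in B3 had the opposite sign, 0.10 ± 0.037 (adjusted p = 0.0253).

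YAP1 (ENSG00000137693.13; chromosome 11, 102110461 to 102233423, plus strand) read 13.32, 13.30 and 13.31 in WT. It read 13.31, 13.32 and 13.30 in B3 and 13.19, 13.22 and 13.22 in C4. WT and B3 could not be told apart (change 0.00, 95% interval -0.04 to 0.05, adjusted p = 0.902), while all C4 libraries lay below them. The fall in C4 was small, -0.10 ± 0.022, or 93.2% of the WT level (adjusted p = 0.000401). Of all tested genes, 46.4% changed more than this in absolute terms. TEAD1 (ENSG00000187079.16; chromosome 11, 12674591 to 12944483, plus strand), which carries YAP and TAZ to DNA, read 14.67, 14.67 and 14.63 in WT, 14.66, 14.73 and 14.64 in B3 and 14.70, 14.72 and 14.69 in C4. It was called in neither line, with changes of 0.02 ± 0.025 in B3 (adjusted p = 0.563) and 0.05 ± 0.025 in C4 (adjusted p = 0.119). When the summed antilogs of the libraries were made equal, the change of TEAD1 in C4 was 0.08 and was called (adjusted p = 0.0111).

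**Figure D2:**
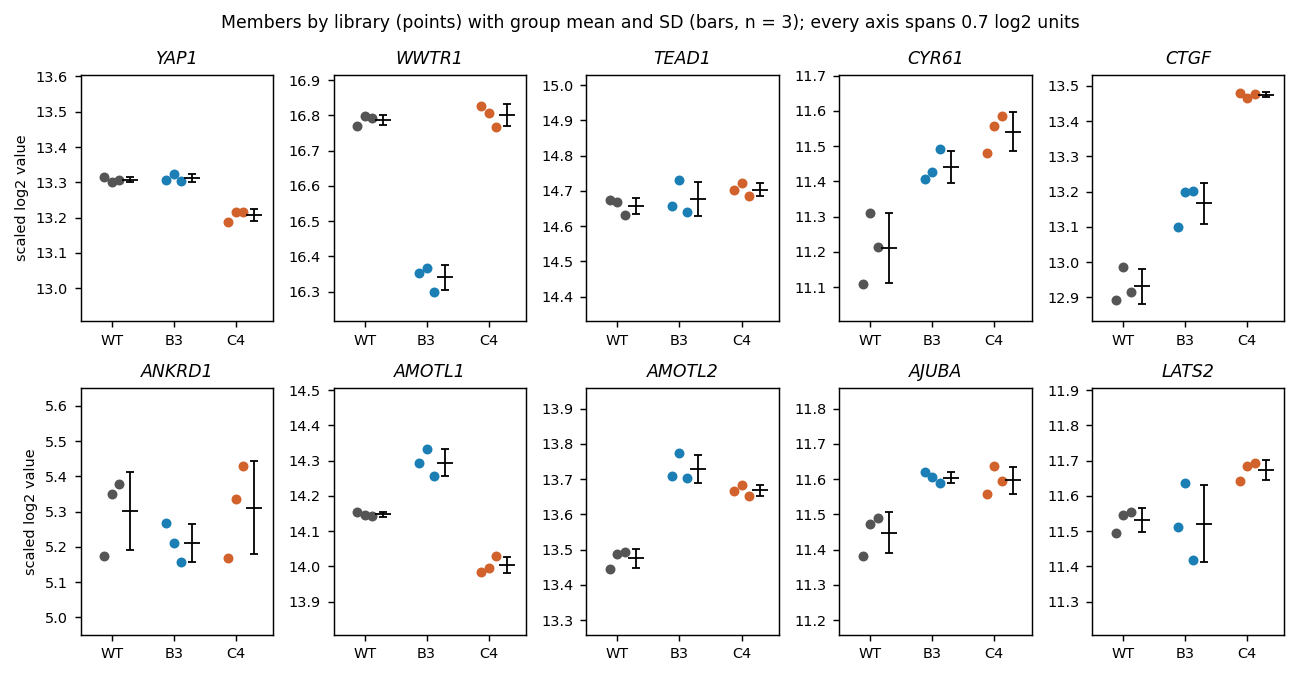
Scaled log2 values of the 10 genes are drawn per library (points; WT grey, B3 blue, C4 orange) with the mean and SD of each group of 3, every axis spanning 0.7 log2 units. CTGF parts all 3 groups, WWTR1 parts B3 from the rest, AMOTL1 parts B3 above and C4 below WT, and the ANKRD1 groups overlap.

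CTGF and CYR61, matricellular proteins that are the most used readouts of YAP/TAZ activity, rose in both lines, and CTGF rose further in C4. CTGF (ENSG00000118523.5; chromosome 6, 131948176 to 131951373, minus strand) read 12.89, 12.99 and 12.91 in WT, 13.10, 13.20 and 13.20 in B3 and 13.48, 13.47 and 13.48 in C4. The 3 groups did not overlap, and they stood in the order WT, B3, C4. The rise was 0.23 ± 0.029 in B3 (1.18-fold, adjusted p = 3.73e-07) and 0.54 ± 0.029 in C4 (1.46-fold, adjusted p = 1.23e-13). Of all tested genes, 3.41% rose more in B3 and 0.845% rose more in C4. The difference between the lines was 0.31 ± 0.029 (adjusted p = 2.54e-09). CYR61 (ENSG00000142871.16; chromosome 1, 85580761 to 85583962, plus strand) read 11.11, 11.31 and 11.22 in WT, 11.41, 11.43 and 11.49 in B3 and 11.48, 11.56 and 11.58 in C4. Every knockout library lay above every WT library, while B3 and C4 overlapped. CYR61 rose by 0.23 ± 0.042 in B3 (1.17-fold, adjusted p = 7.34e-05) and by 0.33 ± 0.042 in C4 (1.26-fold, adjusted p = 3.97e-07). Between the lines CYR61 differed by 0.10 ± 0.042, just past the threshold (adjusted p = 0.0468), and this call was lost in 9 of 19 alternative analyses. Of the single libraries, it was lost without the third of WT (0.10), without the first (0.08) or the second (0.09) of B3, and without the second (0.09) or the third (0.08) of C4.

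ANKRD1, a nuclear ankyrin-repeat protein and a further standard target, did not follow CTGF and CYR61. ANKRD1 (ENSG00000148677.6; chromosome 10, 90912096 to 90921276, minus strand) read 5.17, 5.35 and 5.38 in WT, 5.27, 5.21 and 5.16 in B3 and 5.17, 5.34 and 5.43 in C4. The groups overlapped, and the changes were -0.09 ± 0.052 in B3 (adjusted p = 0.167) and 0.01 ± 0.052 in C4 (adjusted p = 0.89). Its 95% interval in C4, -0.10 to 0.12, leaves out a rise of the size seen in CTGF or CYR61 on this scale. The gene was the weakest of the 10, and whether the authors' transform reduced its changes was not tested. Without the first WT library, the fall in B3 was called (-0.15, adjusted p = 0.0124).

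The angiomotin-like genes encode scaffolds that tether YAP and TAZ outside the nucleus. AMOTL2 (ENSG00000114019.14; chromosome 3, 134355874 to 134375479, minus strand) read 13.44, 13.49 and 13.49 in WT, 13.71, 13.77 and 13.70 in B3 and 13.67, 13.68 and 13.65 in C4. It rose in both lines, by 0.25 ± 0.024 in B3 (adjusted p = 8.56e-09) and 0.19 ± 0.024 in C4 (adjusted p = 3.53e-07), with no knockout library at a WT level. AMOTL1 (ENSG00000166025.17; chromosome 11, 94706431 to 94876753, plus strand) read 14.16, 14.15 and 14.14 in WT, 14.29, 14.33 and 14.26 in B3 and 13.98, 14.00 and 14.03 in C4. The 3 groups were fully apart, B3 above WT and C4 below it. AMOTL1 rose by 0.15 ± 0.023 in B3 (adjusted p = 1.68e-05) and fell in C4 (-0.15 ± 0.023, adjusted p = 1.13e-05). The lines differed by -0.29 ± 0.023 for AMOTL1 (C4 minus B3, adjusted p = 2.09e-10) and by -0.06 ± 0.024 for AMOTL2 (adjusted p = 0.0367, lost in 5 of 19 alternative analyses, among them without B3 replicate 2 at -0.04, C4 replicate 1 at -0.06 and C4 replicate 3 at -0.05).

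AJUBA, a LIM-domain protein that binds LATS kinases, was higher in both lines, and the kinase gene LATS2 was higher in C4. AJUBA (ENSG00000129474.15; chromosome 14, 22971174 to 22982642, minus strand) read 11.38, 11.47 and 11.49 in WT, 11.62, 11.61 and 11.59 in B3 and 11.56, 11.64 and 11.60 in C4. The knockout libraries lay above the WT libraries and overlapped each other. The rises were 0.16 ± 0.033 in B3 (adjusted p = 0.000422) and 0.15 ± 0.033 in C4 (adjusted p = 0.000528). LATS2 (ENSG00000150457.8; chromosome 13, 20973032 to 21061547, minus strand) read 11.49, 11.55 and 11.55 in WT, 11.51, 11.64 and 11.42 in B3 and 11.64, 11.68 and 11.69 in C4. Its B3 libraries were the most scattered (SD 0.11) and spanned the WT values, with a change of -0.01 ± 0.040 (adjusted p = 0.862). In C4 LATS2 rose by 0.14 ± 0.040 (adjusted p = 0.00434). For LATS1, the paralog of LATS2, the changes were -0.06 in B3 (adjusted p = 0.0457) and 0.02 in C4 (adjusted p = 0.638). The LATS1 call in B3 was lost in 14 of 19 alternative analyses, among them leaving out any WT or B3 library (-0.07 to -0.05).

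Between the knockout lines themselves, 7 of the 10 genes were called, 4 higher and 3 lower in C4, where 56.4% of all tested genes were called (28.6% higher and 27.8% lower). WWTR1, CTGF, LATS2 and CYR61 were higher in C4. AMOTL1, YAP1 and AMOTL2 were lower in C4. Libraries of the groups did not overlap for 6 of the 10 genes in B3 against WT (53.8% of tested genes), 8 in C4 against WT (60.7%) and 6 in C4 against B3 (62.3%). These shares too are close to the background.

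Levels were set side by side within gene families per kilobase of exon (GENCODE 29), on the log2 scale. The length is that of all annotated exons of a gene, and which transcripts the cells use was not measured. Shares and rankings within a family rest on this length and on antilogs of values whose transform is not named. As deposited, for example, AMOTL1 (14.15) lay above AMOTL2 (13.48) in WT, and per kb it lay below. WWTR1 was the main co-activator transcript, at 13.71 per kb in WT, 13.27 in B3 and 13.73 in C4. YAP1 stood at 10.65, 10.66 and 10.55. WWTR1 made up 89.3% ± 0.15 of the summed YAP1 and WWTR1 level in WT, 85.9% ± 0.24 in B3 and 90.0% ± 0.28 in C4 (SD, n = 3 libraries). Within each library, log2 WWTR1 minus log2 YAP1 was 3.45, 3.50 and 3.49 in WT, 3.05, 3.04 and 3.00 in B3 and 3.64, 3.59 and 3.55 in C4. A scaling factor of a library cancels in this difference only if the values are plain logs, and the transform is not named. The 3 groups did not overlap in this difference (exact two-sided permutation p = 0.1 in each comparison, the smallest possible, and 0.109 adjusted over 12 such tests).

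TEAD1 was the leading TEAD transcript, with 40.9% of the summed level of the 4 TEAD genes in WT, 44.3% in B3 and 42.6% in C4. TEAD2 followed with 31.1%, 30.7% and 27.6%, and TEAD4 with 17.1%, 14.1% and 18.3%. TEAD3 was the least abundant, at 11.0%, 10.9% and 11.5%. TEAD4 fell in B3 by 0.37 on the log2 scale (adjusted p = 2.12e-09), and the 84 tested genes that start within 5 Mb of TEAD4 had a median change of -0.21 there, with 66 called lower and 0 higher. The part of such neighbourhood shifts in these changes was not tested.

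The angiomotin transcripts changed their shares. AMOT, the founding member, rose by 0.42 ± 0.029 in B3 (adjusted p = 4.31e-11) and by 0.77 ± 0.029 in C4 (adjusted p = 2.35e-16). It made up 11.7% of the summed AMOT, AMOTL1 and AMOTL2 level in WT, 13.3% in B3 and 18.0% in C4. AMOTL1 went from 43.0% in WT to 40.6% in B3 and 35.2% in C4, while AMOTL2 held 45.3%, 46.1% and 46.8%. Log2 AMOT minus log2 AMOTL1 averaged -2.12 in WT, -1.85 in B3 and -1.21 in C4, and log2 AMOTL2 minus log2 AMOTL1 averaged -0.67, -0.57 and -0.34. The groups overlapped in neither ratio (exact permutation p = 0.1 for each pair of groups, the smallest possible).

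CTGF was the main CCN transcript. It held 72.3% of the summed CTGF, CYR61 and NOV level per kb in WT, 72.4% in B3 and 74.9% in C4. Log2 CTGF minus log2 CYR61 averaged 1.72 ± 0.056 in WT, 1.72 ± 0.044 in B3 and 1.93 ± 0.057 in C4 (SD, n = 3 libraries). The ratio in B3 overlapped that in WT (difference 0.00, exact permutation p = 0.8). In C4 it was higher by 0.21, with no overlap (exact permutation p = 0.1). NOV, a further CCN protein, rose as well, by 0.24 ± 0.056 in B3 (adjusted p = 0.000967) and 0.43 ± 0.056 in C4 (adjusted p = 6.32e-07). The 33 genes near NOV had a median change of -0.23 in C4, so NOV moved against its neighbourhood. WISP1 and WISP3 were weak and not called, and WISP2 did not pass the filter on low values.

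**Figure D3:**
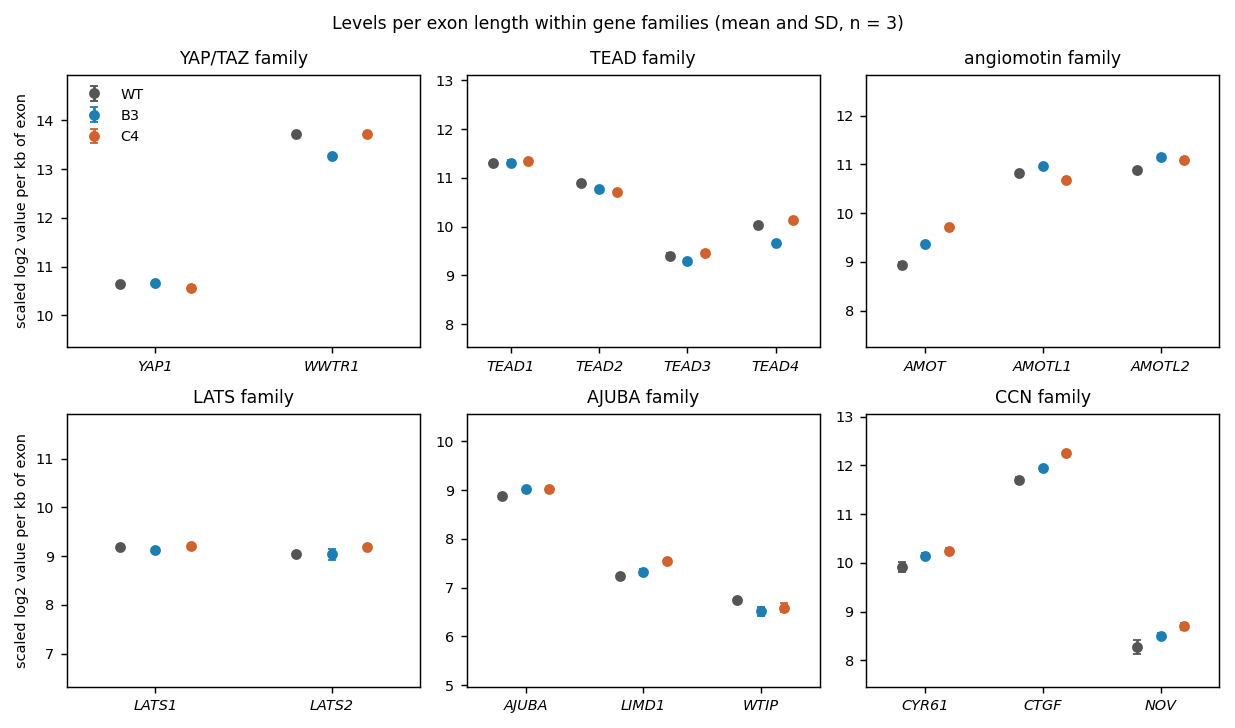
Scaled log2 level per kb of exon is drawn for the genes of 6 families (mean and SD of 3 libraries; WT grey, B3 blue, C4 orange), with equal axis spans. WWTR1 lies about 3 log2 units above YAP1, and AMOT rises from 8.94 in WT to 9.36 in B3 and 9.71 in C4.

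Upstream of YAP and TAZ, the 19 listed genes of the Hippo kinases and their regulators had 5 genes higher and 10 lower in B3 and 7 higher and 8 lower in C4. Over all tested genes 23.2% were called higher and 24.6% lower in B3, and 28.2% higher and 28.0% lower in C4. The median changes of the 19 genes were -0.06 and 0.02. WWC1 (KIBRA), a scaffold that activates LATS, fell the most in either line, -0.36 ± 0.049 in B3 (adjusted p = 2.23e-06) and -0.59 ± 0.049 in C4 (adjusted p = 3.85e-10). Its relative WWC2 fell too (-0.15 and -0.19). TAOK1 and TAOK2, kinases that act above the Hippo kinases, were higher in B3 (0.11 each) and in C4 (0.20 and 0.23). The 79 genes near TAOK1 were higher too, with medians of 0.08 in B3 (39 called higher, 8 lower) and 0.07 in C4 (39 higher, 5 lower), while the medians near TAOK2 were 0.02 and 0.00. MAP4K4, a kinase that can phosphorylate LATS, rose by 0.20 in B3 and fell by 0.29 in C4, where the 53 genes around it had a median of -0.24. FAT4, an atypical cadherin, had the opposite pattern, with -0.20 in B3 and 0.26 in C4 (adjusted p = 0.000731 and 2.12e-05). The B3 count depends on the scaling: with equal summed antilogs, 6 genes were higher and 3 lower.

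Of 18 genes listed as YAP/TAZ binding and cofactor genes, 17 were tested, and VGLL1 did not pass the filter. In B3 6 were higher and 4 lower, where 47.9% of all tested genes were called. In C4 7 were higher and 4 lower, where 56.2% of all tested genes were called. The listed genes had a median change of 0.05 in both lines. With equal summed antilogs, 11 of these genes were higher and 3 lower in B3. Beside AMOT, VGLL3, a TEAD cofactor, rose by 0.20 ± 0.041 in B3 and 0.38 ± 0.041 in C4. VGLL4, which competes with YAP for TEAD, changed by 0.04 in B3 (not called) and by -0.30 in C4 (adjusted p = 7.65e-11), among 77 neighbours with a median of -0.18 in C4. LIMD1, a relative of AJUBA, rose by 0.30 in C4 (adjusted p = 2.38e-07), and WTIP, the other relative, fell (-0.24 in B3 and -0.16 in C4). The WTIP call in C4 was lost without WT replicate 3 (-0.13) or C4 replicate 1 (-0.10). Of the 14-3-3 genes, whose proteins hold phosphorylated YAP in the cytoplasm, YWHAB rose by 0.19 and 0.23, while YWHAZ rose by 0.11 in B3 and fell by 0.32 in C4. The 39 genes near YWHAZ had a median of -0.13 in C4, with 6 called higher and 28 lower. TEAD2 was lower in both lines (-0.12 and -0.18).

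The other 17 genes of a published signature of YAP/TAZ targets moved in both directions. In B3 6 were higher and 9 lower (median -0.08), where 47.9% of all tested genes were called. In C4 6 were higher and 8 lower (median 0.05), where 56.2% of all tested genes were called. IGFBP3, a binding protein of insulin-like growth factors, fell in B3 (-1.39 ± 0.035, adjusted p = 3.16e-19) and in C4 (-1.73 ± 0.035, adjusted p = 2.91e-21), further than any of the 10 genes. The 53 genes near IGFBP3 had medians of -0.11 in B3, with 29 called lower and 1 higher, and 0.00 in C4. NT5E (CD73, which makes adenosine) changed by -0.96 ± 0.024 in B3 and -0.66 ± 0.024 in C4, and its 35 neighbours had a median change of -0.45 in B3, with 29 called lower. AXL, a receptor tyrosine kinase, fell (-0.20 and -0.47), and CCDC80 fell by 0.55 in B3. In C4 CCDC80 was higher by 0.09, a call lost in 4 of 19 alternative analyses (0.07 without WT replicate 2, 0.09 without WT replicate 3, 0.04 without C4 replicate 1). In the other direction MYOF, a membrane repair protein, rose by 0.46 ± 0.024 in B3 (adjusted p = 2.83e-13) and 0.30 ± 0.024 in C4 (adjusted p = 3.23e-10). PTPN14 and DOCK5 were higher in C4 (0.21 and 0.24), TGFB2 was higher in B3 (0.24), and GADD45A rose by 0.13 in B3 and fell by 0.29 in C4. Among the lists, PTPN14, AMOT, LIMD1, WTIP and LATS1 are counted in more than 1.

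CTGF, CYR61 and ANKRD1 are also known targets of SRF and its cofactors MRTF-A and MRTF-B, which answer to actin. Of 21 actin and SRF/MRTF genes, 6 were higher and 2 lower in B3, and 3 were higher and 9 lower in C4. Over all tested genes 47.9% were called in B3 and 56.2% in C4. The 21 include the regulators: SRF, called in neither line, and the cofactor genes MKL1 and MKL2 (MRTF-A and MRTF-B). MKL1 and MKL2 were higher in B3 (0.09 and 0.11) and in C4 (0.24 and 0.16). FLNA was the only other listed gene called higher in C4. The largest falls in C4 were those of TPM1 (tropomyosin) with -0.56 ± 0.025 (adjusted p = 5.21e-15), of FHL2 with -0.42 ± 0.025 (adjusted p = 1.16e-12) and of ACTG1 with -0.28 ± 0.040 (adjusted p = 2.46e-06). The 32 genes near FHL2 had a median of -0.30 in C4, 26 of them called lower. In B3 CNN1 (0.16), ACTN1 (0.13) and FLNA (0.13) were higher, and CALD1 (-0.16) and TPM2 (-0.07) were lower. TPM2 (-0.21) and TPM4 (-0.20) were lower in C4 too. The part of SRF and its cofactors in the changes of CTGF and CYR61 was not tested. FLNA (filamin A) rose in C4 as well (0.10, adjusted p = 0.0167), a call lost without WT replicate 2 (0.09) or C4 replicate 3 (0.08), and 9 of the 21 genes were not called in C4. The TPM2 call in B3 was lost without WT replicate 3 (-0.06) and with equal summed antilogs (-0.04), and that of MKL1 in B3 without B3 replicate 2 (0.07).

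**Figure D4:**
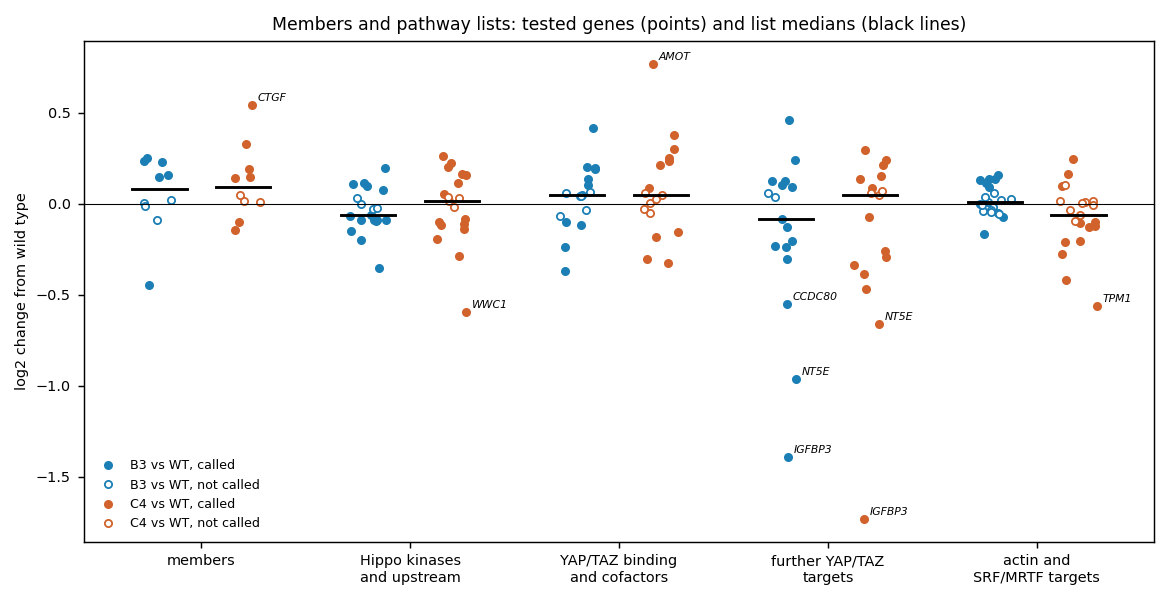
Log2 changes from WT of the tested genes are drawn for the 10 genes and for 4 pathway lists (B3 blue, C4 orange; filled points called, open points not called, black lines the medians). The medians lie between -0.08 and 0.095, and single genes such as IGFBP3 (-1.39 and -1.73) and AMOT in C4 (0.77) lie far from them.

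The neighbourhoods of the members were planned to be read, because regional shifts had been reported in earlier results of these data. Those of TEAD4 and NT5E in B3 and of FHL2 in C4, given above, were mostly called lower. The 33 tested genes that start within 5 Mb of WWTR1 had a median change of 0.01 in B3. Only CP, 0.51 Mb away, fell at least as much (-0.93) as WWTR1 (-0.45). The 37 genes near CTGF had medians of -0.03 in B3 and -0.01 in C4. None of them reached the rise of CTGF in C4 (0.54), and SOGA3, with 0.36, exceeded it in B3. The medians near CYR61 were 0.01 and 0.05 over 40 genes, those near AMOTL2 were -0.01 and -0.03 over 51 genes, and those near AMOTL1 were -0.01 and -0.02 over 36 genes. ZNF326 (0.36) rose more than CYR61 in B3, and GBP2 (0.42), GBP3 (0.40) and GBP4 (0.63) did in C4. Near CYR61 in C4, 16 genes were called higher and 7 lower. Near AMOTL1, 2 genes rose at least as much as AMOTL1 in B3, and 4 fell at least as much in C4. EPHB1, 0.22 Mb from AMOTL2, rose more than AMOTL2 in B3 (0.38) and in C4 (1.31), and DNAJC13, NEK11, NUDT16 and PIK3R4 rose at least as much as AMOTL2 in C4 (0.19 to 0.31). The 92 genes near AJUBA had medians of 0.01 and 0.02, with 21 called higher and 18 lower in B3 and 32 higher and 18 lower in C4, where 20 rose at least as much as AJUBA. The 32 genes near LATS2 had medians of 0.05 in B3, with 10 called higher and 2 lower, and 0.02 in C4, where 13 were higher and 8 lower. Of these, 6 rose at least as much as LATS2 in C4, ATP8A2 (0.43) and CRYL1 (0.40) among them. The 19 genes near YAP1 had a median of -0.07 in C4, 9 were called lower and 2 higher, and 7 fell at least as much as YAP1 (-0.10). Medians near TEAD1 and ANKRD1, which were called in neither line, lay between 0.00 and 0.04.

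**Figure D5:**
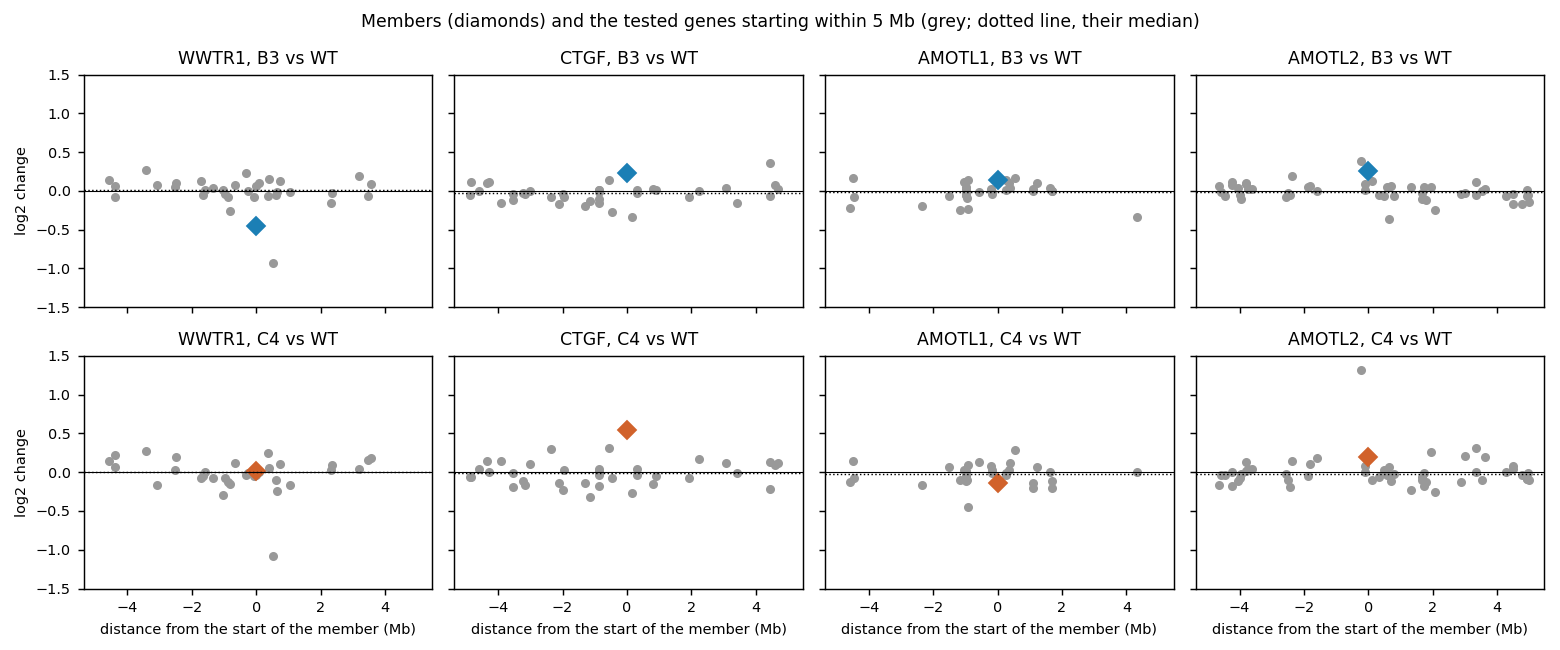
Log2 changes from WT are drawn for WWTR1, CTGF, AMOTL1 and AMOTL2 (diamonds) and for the tested genes that start within 5 Mb (grey points), by signed distance from the start of the member in Mb along its strand; the dotted line is the median of the neighbours. All these medians lie between -0.03 and 0.01, while CTGF in C4 stands at 0.54 and WWTR1 in B3 at -0.45.

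The genes whose profile over the 9 libraries was closest to that of CTGF, after centring each gene on its WT mean, were LDLRAD4 (root mean square difference 0.0432), SLC22A18 (0.0444), ACKR1 (0.0486), AUTS2 (0.0536) and STOX2 (0.0562). LDLRAD4 rose by 0.25 in B3 and 0.58 in C4. Closest to CYR61 were GIPC1 (0.0428), FLOT1 (0.0431), CDK2AP2 (0.0491), DSCR8 (0.0498) and CCDC120 (0.0535). GIPC1 rose by 0.23 in B3 and 0.33 in C4, as CYR61 did. None of these is on the pathway lists, and likeness over 3 groups says nothing of shared control.

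The number of GGAATG copies upstream was also set against the changes of all genes with a promoter window, as a description. Genes with 0 copies (10792 genes) had median changes of 0.0036 in B3 and 0.005 in C4, and 24.9% and 29.9% were called higher. Genes with 1 copy (1548 genes) had medians of 0.0018 and 0.0039, and 24.9% and 31.8% were called higher. Genes with 2 copies (109 genes) had medians of -0.0083 and 0.0095, and 23.9% and 38.5% were called higher. Of the 9 genes with 3 or more copies, CTGF among them, 3 were called higher in B3 and 5 in C4, with medians of 0.0117 and 0.076. The shares called lower for 0, 1 and 2 copies were 24.6%, 25.1% and 23.9% in B3 and 28.0%, 28.1% and 31.2% in C4, and of the 9 genes 2 were called lower in each line.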

How the data were processed

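Polyadenylated RNA of 9 libraries was measured by sequencing. Per the submitters' processing notes, the authors used STAR 2.7.3a, Subread 1.6.3, DESeq2 (no version given) and build hg38, with no role or order stated. The values deposited by the authors are on a log2 scale and were scaled across libraries. The median SD between replicates was 0.00935 at values under 2, 0.0351 at 4 to 6, 0.0452 at 8 to 12 and 0.0307 at 12 and over. The transform is not named in the sources used here; a low spread of the weakest genes is a feature of transforms that shrink weak genes. Reads could not be recovered and depth is unknown. Groups were taken from the labels. The members and lists were chosen with earlier results of these data known.

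Testing was limited to a mean antilog of 10 or more (16457 of 19356; 2899 left out). A single limma model (version 3.58.1, under R 4.3.3) held all 9 libraries, with a coefficient per group and an intensity trend, two-sided, adjusted by Benjamini-Hochberg over all tested genes, with a threshold of 0.05. The fit was also run on simulated data with independent noise in each library. That check does not cover shifts of whole libraries or libraries that are technical replicates. Ratios within libraries were compared by exact permutation tests (scipy 1.17.1), 12 in all. Named genes were the 10 members, ARNT2, up to 3 called genes with the largest rise and up to 3 with the largest fall per list and line, and the 5 nearest profiles of each of 2 members; other genes named beside these were chosen after their values were seen. Positions are from GENCODE 29 (92.6% of tested symbols matched). Exons shared with other genes touch YAP1 (628 bases), WWTR1 (795), CTGF (195), AMOTL1 (496), AMOTL2 (187) and AJUBA (50). The alternatives were other filters, pseudocounts, scalings and moderation, a fit of only the groups compared, a replicate block and leaving out each library. No label gives a batch or date.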

Additional observations from a re-analysis of the deposited data

Results flagged for a closer look

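For the values here, the change from WT differed between C4 and B3 by a test of the difference itself (C4 minus B3, log2, limma adjusted p under 0.05), which 56.4% of all tested genes passed. Groups of 3 libraries were too small to look for single outlying libraries.

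Among the effectors and targets the differences were 0.46 for WWTR1, 0.31 for CTGF, 0.15 for LATS2, 0.10 for CYR61, -0.06 for AMOTL2, -0.11 for YAP1 and -0.29 for AMOTL1. ARNT2 itself was higher in C4 by 0.25. AMOTL1 was called in opposite directions in the 2 lines.

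Among Hippo kinases and their regulators they were 0.46 for FAT4, 0.12 for TAOK2, 0.09 for TAOK1, 0.08 for LATS1, -0.24 for WWC1 and -0.49 for MAP4K4. Among YAP/TAZ binding and cofactor genes they were 0.46 for TEAD4, 0.35 for AMOT, 0.24 for LIMD1, 0.18 for VGLL3, 0.15 for PTPN14, -0.07 for TEAD2, -0.34 for VGLL4 and -0.43 for YWHAZ. The medians of the genes within 5 Mb were -0.21 for TEAD4 in B3, and in C4 -0.18 for VGLL4, -0.24 for MAP4K4 and -0.13 for YWHAZ.

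Further targets differed by 0.64 for CCDC80, 0.32 for DOCK5, 0.30 for NT5E, -0.16 for MYOF, -0.17 for TGFB2, -0.27 for AXL, -0.34 for IGFBP3 and -0.42 for GADD45A. NOV differed by 0.19. Actin and SRF/MRTF genes differed by 0.15 for MKL1, 0.06 for CALD1, -0.13 for TPM2, -0.26 for CNN1, -0.26 for ACTN1, -0.27 for ACTG1, -0.44 for FHL2 and -0.53 for TPM1. In B3 the medians of the genes within 5 Mb were -0.15 for DOCK5 (41 called lower, 6 higher), -0.45 for NT5E and -0.11 for IGFBP3. In C4 such medians were -0.23 for NOV and -0.30 for FHL2. Of the genes with profiles like CTGF, the differences were 0.33 for LDLRAD4, 0.33 for ACKR1, 0.29 for SLC22A18, 0.22 for AUTS2 and 0.22 for STOX2. Of those like CYR61, they were 0.10 for GIPC1, 0.09 for CDK2AP2 and 0.07 for FLOT1.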

How the results depend on the processing

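Of 30 results of the 10 genes (3 comparisons each), 25 kept their call under all 19 alternatives (18 for ANKRD1, which the stricter filter removes), 5 had a changed call and 0 changed direction while called. The changed calls were CYR61 and AMOTL2 between the lines (lost in 9 and 5 alternatives), ANKRD1 in B3 (called without WT replicate 1) and between the lines (called without C4 replicate 1), and TEAD1 in C4 (called with every library at the same total). Without B3 replicate 2 the AMOTL2 difference between the lines was -0.04 in place of -0.06. Of the 10 genes, 6 to 7 were called for B3, 7 to 8 for C4 and 5 to 7 for C4 against B3. Of 141 results of other named genes, 121 kept their call, and 0 reversed; LATS1 in B3 lost its call in 14 alternatives. Over all genes the calls ranged from 6944 to 8534 (B3), 8387 to 9571 (C4) and 8363 to 9596 (C4 against B3). With every library at the same total, 64.2% of called genes were higher in B3 and 61.5% in C4, beside 48.5% and 50.2% as deposited, and the median of all genes moved by 0.0333 and 0.0301. Under that scaling the Hippo kinase list had 9 called genes in B3 in place of 15. The CCN list ranged from 1 to 2 called genes when single libraries were left out, in B3 (2 without WT replicate 3 or B3 replicate 1) and in C4 (2 without WT replicate 3); the cause was not tested. Shared replicate numbers showed no pairing, and libraries did not correlate best with their own number: deviations of same-numbered libraries correlated between -0.229 and 0.016 (9 pairs), and those of different-numbered libraries between -0.12 and 0.225 (18 pairs). With the replicate number as a block, 7504 genes were called for B3, 8961 for C4 and 9017 for C4 against B3. No call of the 10 genes was changed by the block; of the other named genes LATS1 in B3, and CALD1 and TEAD2 between the lines, were no longer called. Depth is unknown, so no counting error can be given, and whether the transform reduced the changes of weak genes such as ANKRD1 was not tested. With 3 libraries a group, an exact permutation test cannot go below 0.1.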
